A study of Mus musculus with 6 samples.

Results

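Lrg1 and the genes of the transforming growth factor beta (TGF-beta) receptor system were followed in whole mouse livers. The 9 genes were taken by symbol from the deposited count table, which lists 20140 genes. They are Lrg1, the ligand genes Tgfb1, Tgfb2 and Tgfb3, the type I receptor genes Tgfbr1 and Acvrl1, the type II receptor gene Tgfbr2, and the co-receptor genes Tgfbr3 and Eng. All 9 were listed in each of the 6 livers and passed the filter on low counts, which left 16370 genes for testing.

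The bulk RNA-seq experiment compared 3 groups of 2 livers, all collected on day 21. Sham livers came from mice labelled as controls that received PBS, and intra-C and intra-S livers from mice given CT26, an established mouse colon carcinoma cell line. The labels do not spell out intra-C and intra-S; the study describes a cecal orthotopic CT26 model, called premetastatic at this time, and an intrasplenic CT26 model with liver metastasis, both in BALB/c mice. The labels give whole livers with all liver cells and 2 replicates a group, without saying how many mice gave each liver sample, so the p-values measure the spread between these samples.

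LRG1 is a secreted leucine-rich glycoprotein, made by hepatocytes as an acute-phase protein, by endothelial cells and in neutrophil granules. In endothelial cells it binds the TGF-beta co-receptor endoglin and shifts TGF-beta signaling toward the type I receptor ALK1, encoded by Acvrl1, and away from the type I receptor ALK5, encoded by Tgfbr1. TGF-beta ligands bind the type II receptor, which recruits and phosphorylates a type I receptor, and the type I receptor phosphorylates SMAD proteins that enter the nucleus.

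The promoter sequences of Lrg1 and Tgfb1 are shown because both genes were higher in each tumor-bearing group, and that of Tgfbr2 because it alone held one of the motifs searched. They are RefSeq sequences of GRCm38.p6, printed 5′ to 3′ on the strand of the gene and ending before the first base that RefSeq or GENCODE annotates. Capitals mark a motif match. The Lrg1 promoter lies at chr17:56122002-56122196 on the minus strand, the Tgfb1 promoter at chr7:25686752-25687001 on the plus strand, and the Tgfbr2 promoter at chr9:116175364-116175613 on the minus strand.
Lrg1: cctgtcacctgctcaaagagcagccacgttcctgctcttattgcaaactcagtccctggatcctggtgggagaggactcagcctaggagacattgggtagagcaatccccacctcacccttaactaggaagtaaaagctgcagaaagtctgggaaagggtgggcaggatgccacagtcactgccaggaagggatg
Tgfb1: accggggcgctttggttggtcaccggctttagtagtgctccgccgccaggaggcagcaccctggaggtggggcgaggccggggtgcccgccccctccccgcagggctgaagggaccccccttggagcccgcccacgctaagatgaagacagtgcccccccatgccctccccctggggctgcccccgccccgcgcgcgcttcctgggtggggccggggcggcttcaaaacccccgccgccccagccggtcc
Tgfbr2: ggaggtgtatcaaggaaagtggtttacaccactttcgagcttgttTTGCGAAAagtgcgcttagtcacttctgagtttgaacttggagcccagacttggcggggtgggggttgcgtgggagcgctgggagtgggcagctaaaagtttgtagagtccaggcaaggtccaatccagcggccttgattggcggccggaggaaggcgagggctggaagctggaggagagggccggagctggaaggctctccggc
Windows of 300 bases around annotated starts were searched on both strands for TTCNNNGAA (the letters of a STAT site), TTGCNNAA (C/EBP) and GTCTAGAC (SMAD), which do not overlap one another here. Among 32851 RefSeq promoters, 8.3% held the first, 10.8% the second and 0.213% the third. Of the 9 genes, 6 had 1 or more windows in the table (Lrg1, Tgfb1, Tgfb2, Tgfbr1, Tgfbr2 and Eng), and the only match was TTGCGAAA in that of Tgfbr2, beginning 205 bases before the start. The bases printed were 54.4% G or C for Lrg1, 75.2% for Tgfb1 and 58.4% for Tgfbr2.

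The libraries held 32838321 to 43368309 assigned reads, so that 3 reads, the limit a count of 0 allows, equal 0.0679 to 0.0928 CPM (read counts scaled by the TMM-adjusted library total). The 2 intra-S livers were the least alike, and intra-S liver 1 stood apart: 3.91% of the 7261 genes that averaged at least 10 CPM were more than 4-fold apart in the intra-S pair, against 0.193% in the sham pair and 0.496% in the intra-C pair. Intra-S liver 2 correlated better with both intra-C livers (Pearson r of log2 CPM across genes 0.957 and 0.955) than with intra-S liver 1 (0.928). For the 9 genes the intra-S values are therefore given with and without liver 1, and so are the fold changes of pathway genes that moved with it in call, sign or size (over 1.5 times). Leaving out that liver raised the calls over the whole table: 14.5% of 17564 tested genes then rose and 12% fell in intra-C, and 9.58% rose and 6.93% fell in intra-S, and counts without it are to be read against these shares. Dropping either sham liver left no gene of the whole table called in any comparison, so all calls rest on both sham livers. The liver label was borne out by its defining markers, with Alb between 84369 and 156594 CPM in every liver.

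Of the 9 genes, Lrg1, Tgfb1 and Tgfbr3 rose in intra-C livers against sham, and none fell; 4.92% of all tested genes rose in that comparison and 2.38% fell (edgeR quasi-likelihood test, Benjamini-Hochberg adjusted p under 0.05). The same 3 of 9 rose in intra-S livers against sham, where 6.78% of tested genes rose and 3.95% fell. Both comparisons share the 2 sham livers. The median log2 fold change of the 9 genes was 1.23 in intra-C and 1.39 in intra-S, beside 0.01 and 0.04 over all tested genes. Both intra-C livers lay above both sham livers for 8 of the 9 genes, as for 34.4% of tested genes. Both intra-S livers did so for 6 of the 9, as for 30.4% of tested genes. Both intra-S livers lay above both intra-C livers for 2 of the 9 and below them for 3, as for 21.9% and 21.5% of tested genes. Between intra-S and intra-C 0 genes of the table (0%) were called by edgeR, 2193 had an unadjusted p under 0.05, or 13.4% of tested genes, and 0 of the 9 genes were among these. DESeq2 called none of the 9 there and 3.36% of the genes it tested. Against sham it called 4 of the 9 in intra-C, where it called 16.3% of the genes it tested, and 6 of the 9 in intra-S, where it called 19.5%. These were the 3 genes above with Acvrl1 in both groups and Tgfb3 and Tgfbr1 in intra-S.

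**Figure D1:**
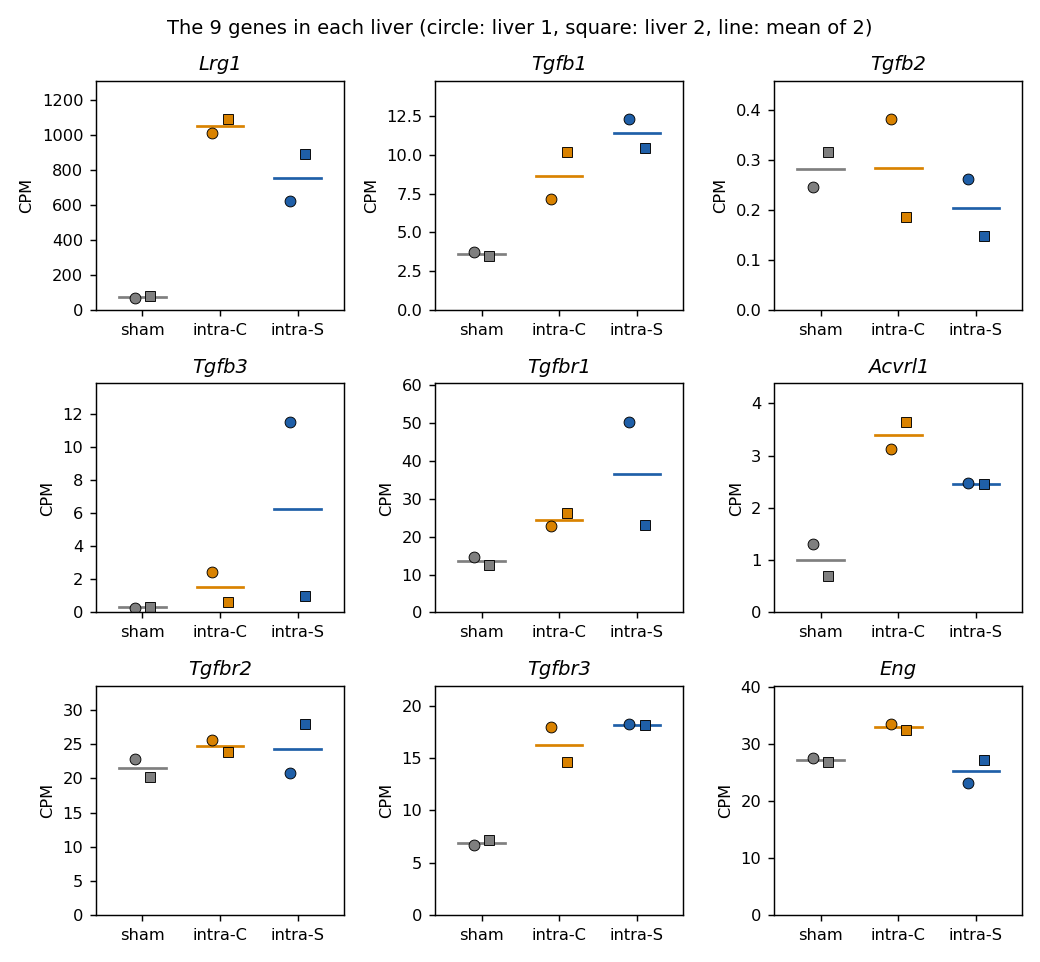
CPM (TMM-scaled counts, linear axes from 0) of the 9 genes in each of the 6 livers, with circles for liver 1, squares for liver 2 and a line at the mean of each group. Lrg1, Tgfb1 and Tgfbr3 are higher in all 4 tumor-bearing livers than in both sham livers, and intra-S liver 1 lies far above its partner for Tgfb3 and Tgfbr1.

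Lrg1, which lies on chromosome 17 (chr17:56119678-56122001, minus strand, GRCm38, 2 exons, no overlapping gene), had 69.6 and 79.3 CPM in the sham livers. It reached 1012 and 1091 CPM in the intra-C livers and 622 and 892 CPM in the intra-S livers. All 4 tumor-bearing livers were far above both sham livers, and both intra-S livers were below both intra-C livers. The group means were 74.5 ± 6.90, 1051 ± 55.8 and 757 ± 191 CPM (SD, n = 2 each). The log2 fold change was 3.82 (SE 0.28, adjusted p = 0.00543) in intra-C and 3.35 (SE 0.27, adjusted p = 0.00469) in intra-S, or 14.1-fold and 10.2-fold. Without intra-S liver 1 the intra-S value was 3.59 (adjusted p = 9.75e-05). Without sham liver 1 or sham liver 2 the values stayed between 3.26 and 3.92, but the adjusted p rose to 0.0983 and 0.0985 in intra-C and to 0.0871 in intra-S. The direct difference of intra-S from intra-C was -0.47 (95% interval -1.07 to 0.12, adjusted p = 0.441). It was -0.76 (adjusted p = 0.023) without intra-S liver 2 and -0.24 without intra-S liver 1, so its call depended on which intra-S liver was kept.

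By deposited TPM, which corrects for gene length, Lrg1 ranked 1009th and 918th of all listed genes in the sham livers. It ranked 78th and 71st in intra-C and 118th and 87th in intra-S, so in the tumor-bearing livers it stood among the most abundant transcripts of the organ. The hepatocyte markers did not show one direction. In intra-C 0 of 12 were called by edgeR in either direction, 7 had an unadjusted p under 0.05, as had 27% of all tested genes (30.2% in intra-S), and in intra-S 1 rose and 2 fell. Without intra-S liver 1, 5 rose and 3 fell in intra-C, and 2 rose and 3 fell in intra-S. Per 1000 CPM of albumin transcript, Lrg1 had 0.738 and 0.908 CPM in sham, 8.38 and 12.9 in intra-C, and 3.97 and 8.23 in intra-S. In whole tissue, more cells of a type and more RNA per cell cannot be told apart.

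Neutrophil markers moved with Lrg1. All 14 rose in both tumor-bearing groups, beside 4.92% and 6.78% of all tested genes. Their summed level went from 11.8 and 12.9 CPM in sham to 1861 and 3523 CPM in intra-C and 2756 and 3889 CPM in intra-S. Lcn2 alone made up most of each sum. It had 7.76 and 7.65 CPM in sham, 1508 and 2820 in intra-C, and 1629 and 3401 in intra-S. The granule genes Camp, Mpo and Elane had 0 counts in both sham livers. Summed endothelial markers went from 197 and 208 CPM to 540 and 537 CPM in intra-C and to 707 and 423 CPM in intra-S. The part of neutrophils and endothelial cells in the Lrg1 level was not tested.

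Over the 6 livers the genes whose centred log2 CPM ran closest to Lrg1, among those at 10 CPM or more on average, were Csf2rb, Slc37a1, Hp, Emilin2 and Apcs. Csf2rb, the common beta chain of the receptors for GM-CSF, IL-3 and IL-5, was closest, with a root mean square difference of 0.13. Hp (haptoglobin) and Apcs (serum amyloid P) are plasma proteins made by the liver. Hp went from a mean of 2312 CPM in sham to 21640.2 in intra-C and 20150.2 in intra-S. Apcs went from 383 to 3816 and 2965 CPM. This likeness is a description over 6 livers that share 3 conditions.

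**Figure D2:**
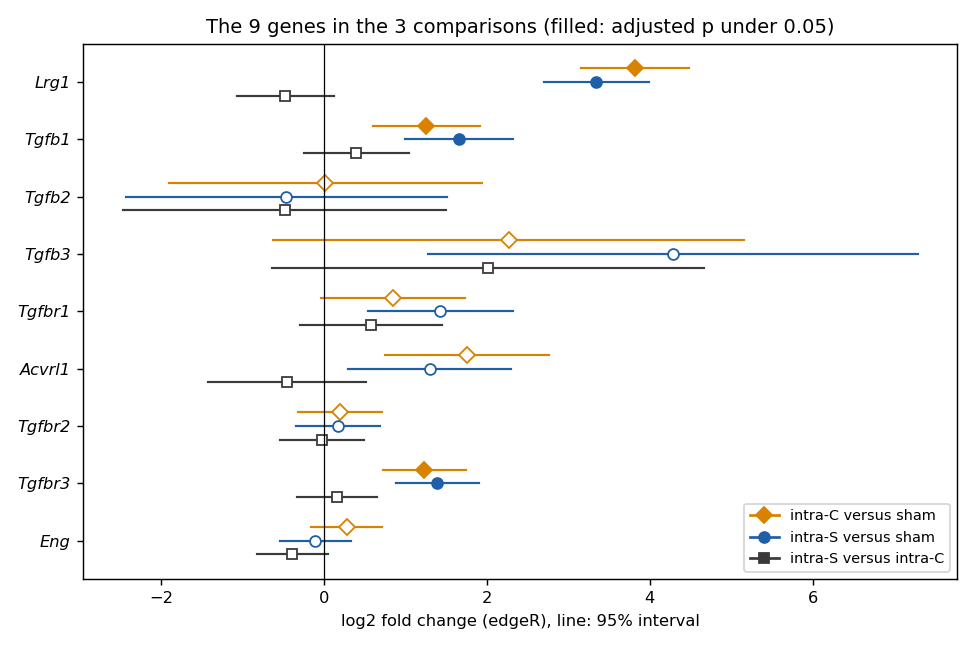
Log2 fold change (edgeR, horizontal axis) of the 9 genes in the 3 comparisons, with lines for the 95% interval and filled symbols for an adjusted p under 0.05. Lrg1 lies near 3.82 and 3.35 against sham, Tgfb1 and Tgfbr3 between 1.23 and 1.66, and no symbol of the intra-S versus intra-C comparison is filled.

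Among the 3 TGF-beta ligand genes, Tgfb1 rose in both tumor-bearing groups. Tgfb1 (chr7:25687002-25705077, plus strand), whose product is the main TGF-beta of immune cells and platelets, had 3.72 and 3.51 CPM in sham, 7.13 and 10.2 CPM in intra-C, and 12.3 and 10.5 CPM in intra-S. The sham livers lay below all others, and the intra-S livers were both above the intra-C livers. Tgfb1 had a log2 fold change of 1.26 (SE 0.27, adjusted p = 0.0456) in intra-C and 1.66 (SE 0.28, adjusted p = 0.0198) in intra-S, and 1.54 (adjusted p = 0.0114) in intra-S without liver 1.

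The intra-C call of Tgfb1 was a narrow one. Without intra-C liver 1 the adjusted p was 0.132, without intra-C liver 2 it was 0.227, and without sham liver 1 or 2 it was 0.275 or 0.319. It was 0.0795 on library size without TMM, and 0.0759 and 0.0689 on TPM by limma, with a log2 fold change between 0.89 and 1.49 over all alternatives. In intra-S the call was lost without either sham liver (adjusted p = 0.163 and 0.177) and, narrowly, when the intra-C livers were kept out of the fit (adjusted p = 0.0507). The direct difference between the tumor-bearing groups was 0.40 (95% interval -0.24 to 1.04).

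Markers of cells known to make TGF-beta 1 rose beside Tgfb1. Of 13 monocyte and macrophage markers 10 rose in intra-C and 9 in intra-S, where 4.92% and 6.78% of all tested genes rose. Clec4f, which marks Kupffer cells and had the highest mean CPM of the list, was among these markers. Their sum went from 232 and 237 CPM in sham to 1063 and 1342 CPM in intra-C and 745 and 1330.2 CPM in intra-S. Of 9 platelet and megakaryocyte markers 4 rose in intra-C and 6 in intra-S, with sums of 8.89 and 8.81, 32.7 and 57.3, and 98.5 and 62.0 CPM. Itgb3 had the highest mean CPM of these, and Gp1bb had 0 counts in both sham livers. Tgfb1 per 1000 CPM of summed macrophage markers was 16.0 and 14.8 CPM in sham, 6.70 and 7.58 in intra-C, and 16.5 and 7.88 in intra-S, where it overlapped sham. Per 1000 CPM of summed platelet markers it was 418 and 398 CPM in sham, 218 and 178 in intra-C, and 125 and 169 in intra-S, lower in all 4 tumor-bearing livers. With endothelial markers in their place it was 18.9 and 16.8 in sham, 13.2 and 18.9 in intra-C, and 17.4 and 24.8 in intra-S. That ratio overlapped sham in both tumor-bearing groups. The part of these cells in the Tgfb1 level was not tested. The genes whose pattern ran closest to Tgfb1 were Foxa3, Cyrib and Ifngr1.

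Tgfb3 (chr12:86056745-86079041, minus strand) had 0.296 and 0.340 CPM in sham, 2.42 and 0.650 CPM in intra-C, and 11.5 and 0.981 CPM in intra-S. One liver, intra-S liver 1, carried most of the signal, with 396 reads against 12 to 95 in the others. Tgfb3 had a log2 fold change of 2.27 (95% interval -0.62 to 5.16, adjusted p = 0.279) in intra-C and 4.28 (95% interval 1.28 to 7.29, adjusted p = 0.0777) in intra-S. DESeq2 called it in intra-S with all livers kept (4.29, adjusted p = 0.000671). By edgeR the intra-S value was 1.62 (adjusted p = 0.242) without intra-S liver 1, and without intra-S liver 2 it was 5.17 (adjusted p = 0.00195). Leaving out intra-S liver 2 also brought intra-C to an adjusted p of 0.0386. The difference of intra-S from intra-C turned from 2.01 to -0.65 without intra-S liver 1 and was 2.89 (adjusted p = 0.0225) without intra-S liver 2. Ttll5, Gm37804 and Gm48008 lie on the opposite strand over this locus. Ttll5 shares 0 exonic bases with Tgfb3 and had 1.55 to 8.87 CPM, and the exons of the other overlapping genes were not compared. The strand setting of the counting is not given.

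Tgfb2 (chr1:186622792-186705989, minus strand) was barely detected. Its counts were 10 and 14 in sham, 15 and 6 in intra-C, and 9 and 6 in intra-S, or 0.147 to 0.382 CPM, and Gm26169 and Gm29491 overlap it on the other strand. The 3 groups overlapped. The log2 fold change was 0.02 (95% interval -1.91 to 1.95) in intra-C and -0.46 (95% interval -2.43 to 1.51) in intra-S, so smaller changes were not detectable at this depth. The intra-S value was -0.92 (adjusted p = 0.662) without liver 1. The genes nearest in pattern were Bag4, Scap and Enpp5 for Tgfb2, and Adgrf1, Retreg1 and Mdm1 for Tgfb3.

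Per length, Tgfb1 made up most of the TGF-beta ligand transcripts. Its share of the summed TPM of the 3 ligands was 93.7% and 92.2% in sham, 81.2% and 95.7% in intra-C, and 62.2% and 94.0% in intra-S. The low share in intra-S liver 1 went with a Tgfb3 share of 37.5%. The summed ligand TPM was 4.11 and 3.93 in sham, 7.71 and 9.98 in intra-C, and 16.1 and 9.70 in intra-S, so all 4 tumor-bearing livers were above both sham livers.

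**Figure D3:**
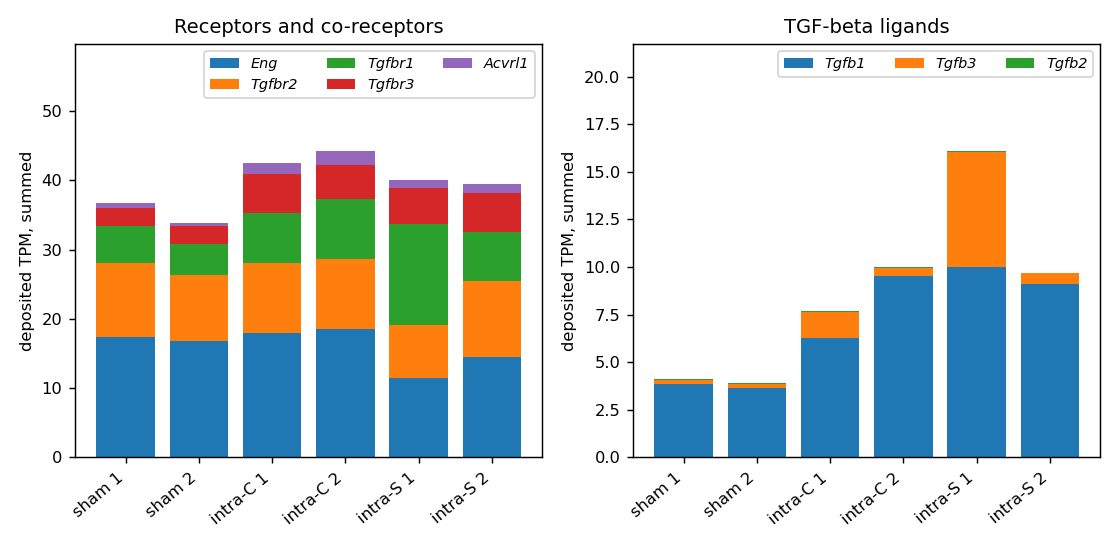
Stacked deposited TPM (length-corrected expression, linear axis from 0) of the 5 receptor and co-receptor genes, left, and the 3 TGF-beta ligand genes, right, in each of the 6 livers. The summed receptor TPM is 33.9 and 36.7 in sham and 39.4 to 44.2 in the tumor-bearing livers, the Eng part is smallest in the intra-S livers, and the summed ligand TPM is also higher in each tumor-bearing liver than in both sham livers.

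The 2 type I receptor genes were higher in each tumor-bearing liver than in each sham liver but did not pass the edgeR test with all livers kept. Tgfbr1 (ALK5, chr4:47353222-47414931, plus strand), the type I receptor that phosphorylates SMAD2 and SMAD3, had 14.7 and 12.5 CPM in sham, 22.9 and 26.2 CPM in intra-C, and 50.4 and 23.0 CPM in intra-S. Intra-S liver 1 stood far above every other liver, while intra-S liver 2 lay within the intra-C range. The log2 fold change was 0.85 (95% interval -0.03 to 1.73, adjusted p = 0.198) in intra-C and 1.43 (95% interval 0.54 to 2.32, adjusted p = 0.0583) in intra-S.

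The Tgfbr1 calls depended on the test and on the intra-S livers. DESeq2 called it in intra-S with all livers kept (1.42, adjusted p = 0.00689) and not in intra-C (adjusted p = 0.171). Without intra-S liver 1 the log2 fold change was 0.86 (adjusted p = 0.00893) in intra-C and 0.76 (adjusted p = 0.0351) in intra-S. Without intra-S liver 2 it was 0.85 (adjusted p = 0.00857) in intra-C and 1.89 (adjusted p = 0.000526) in intra-S. The difference of intra-S from intra-C was 0.58 with all livers, 1.04 (adjusted p = 0.011) without intra-S liver 2 and -0.10 without intra-S liver 1. Oit3, a gene of the liver sinusoidal endothelium that is also among the endothelial markers used here, had the pattern most like Tgfbr1, with a root mean square difference of 0.07, followed by Arl8a and Inpp4a. Oit3 had 10.2 and 9.91 CPM in sham, 18.2 and 20.0 CPM in intra-C, and 36.3 and 16.7 CPM in intra-S.

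Acvrl1 (ALK1, chr15:101128522-101145336, plus strand), the largely endothelial type I receptor, had 1.31 and 0.702 CPM in sham, 3.13 and 3.65 CPM in intra-C, and 2.48 and 2.45 CPM in intra-S. No sham liver overlapped a tumor-bearing one, and the sham pair was the least even. Its log2 fold change was 1.76 (95% interval 0.75 to 2.76, adjusted p = 0.0578) in intra-C and 1.30 (95% interval 0.29 to 2.30, adjusted p = 0.0964) in intra-S. In intra-C the adjusted p was 0.0187 without intra-S liver 1, 0.019 without intra-S liver 2 and 0.0211 when the intra-S livers were kept out of the fit. It was 0.0459 with at least 10 counts required in every liver, and DESeq2 called Acvrl1 in intra-C (adjusted p = 0.00483) and in intra-S (adjusted p = 0.0494). Leaving out sham liver 1 or 2 gave 2.27 or 1.37 in intra-C and 1.81 or 0.91 in intra-S, with adjusted p from 0.189 to 0.423. The intra-S value was 1.29 (adjusted p = 0.107) without intra-S liver 1. The antisense gene Gm16031 overlaps this locus, and since the strand setting is not given, counts of this pair are uncertain. Il17ra, Cemip2 and Sema6d ran closest to it.

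Tgfbr2 (chr9:116084293-116175360, minus strand), the type II receptor to which all 3 TGF-beta ligands signal, was not called in either group. It had 22.9 and 20.1 CPM in sham, 25.6 and 23.8 CPM in intra-C, and 20.8 and 27.9 CPM in intra-S. The sham and intra-S livers overlapped. The log2 fold change was 0.20 (95% interval -0.32 to 0.72) in intra-C and 0.18 (95% interval -0.34 to 0.69) in intra-S, and its sign turned on library size without TMM in both. The intra-S value was 0.38 (adjusted p = 0.182) without intra-S liver 1. The per-length ratio of Tgfbr1 to Tgfbr2 was 0.501 and 0.482 in sham, 0.695 and 0.858 in intra-C, and 1.89 and 0.640 in intra-S, so it was higher in all 4 tumor-bearing livers. Arf1, Slc39a7 and Spcs3 had the patterns nearest to Tgfbr2.

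Of the 2 co-receptor genes 1 was called. Tgfbr3 (betaglycan, chr5:107106570-107289629, minus strand), a proteoglycan that presents TGF-beta to the type II receptor, rose in both tumor-bearing groups. Gm8145 overlaps it on the other strand. It had 6.68 and 7.15 CPM in sham, 18.0 and 14.6 CPM in intra-C, and 18.2 and 18.1 CPM in intra-S. All 4 tumor-bearing livers had over 14 CPM, and both sham livers under 8. The log2 fold change was 1.23 (SE 0.21, adjusted p = 0.0267) in intra-C and 1.39 (SE 0.21, adjusted p = 0.0154) in intra-S, and 1.39 (adjusted p = 0.00507) in intra-S without liver 1.

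The intra-C call of Tgfbr3 was lost without intra-C liver 1 (adjusted p = 0.174), intra-C liver 2 (0.104), sham liver 1 (0.242) or sham liver 2 (0.233), and on TPM by limma (0.0504 and 0.0554). The intra-S call was lost without sham liver 1 (adjusted p = 0.168) or sham liver 2 (0.154), and at 0.0507 when the intra-C livers were kept out of the fit. The difference between the tumor-bearing groups was 0.16 (95% interval -0.33 to 0.66). The genes closest in pattern were Trf (transferrin) and Ahsg (fetuin-A), which encode plasma proteins of the hepatocyte, and Leprot. Trf had group means of 23996, 48687 and 60792 CPM in sham, intra-C and intra-S.

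Eng (endoglin, chr2:32646595-32682669, plus strand), the co-receptor that LRG1 binds on endothelial cells, had 27.5 and 26.8 CPM in sham, 33.5 and 32.5 CPM in intra-C, and 23.2 and 27.3 CPM in intra-S. The intra-C livers were slightly above sham, and the intra-S livers overlapped sham. For Eng this gave a log2 fold change of 0.28 (95% interval -0.15 to 0.72, adjusted p = 0.368) in intra-C and -0.10 (95% interval -0.54 to 0.33, adjusted p = 0.738) in intra-S, and 0.01 in intra-S without liver 1. A doubling of Eng lies outside both intervals. The difference of intra-S from intra-C was -0.39 (95% interval -0.82 to 0.05). Fpgs on the opposite strand shares 61 exonic bases, 1.51% of the Eng exons, and had 42.2 to 109 CPM. Cyfip1, Pik3r4 and Sel1l had the patterns nearest to Eng.

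Eng and Tgfbr2 were not called, whereas several endothelial markers were; the difference between these genes was not tested. Of 20 endothelial markers 8 rose and 0 fell in each tumor-bearing group, beside 4.92% and 6.78% of all tested genes that rose. All 20 lay above sham in all tumor-bearing livers, as did 34.4% of tested genes in intra-C and 30.4% in intra-S. The median log2 fold change of the 20 was 1.36 in both groups. Pecam1 (CD31) rose by 2.25 on the log2 scale (adjusted p = 0.013) in intra-C and 2.40 (adjusted p = 0.00912) in intra-S, and Cdh5 (VE-cadherin) by 2.03 and 2.41. Clec4g, the most abundant, had a log2 fold change of 1.39 (adjusted p = 0.0577) in intra-C and 0.91 (adjusted p = 0.124) in intra-S, and passed in both without intra-S liver 1 (adjusted p = 0.00164 and 0.00508). With intra-S liver 1 left out, 19 of the 20 were called in intra-C and 14 in intra-S, all as higher, beside 14.5% and 9.58% of all tested genes. None of the 20 was at 0 in both sham livers.

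Per 1000 CPM of the summed endothelial markers, Eng had 140 and 128 CPM in sham, 62.0 and 60.4 in intra-C, and 32.8 and 64.4 in intra-S. Tgfbr2 had 116 and 96.6 in sham, 47.5 and 44.3 in intra-C, and 29.4 and 66.0 in intra-S. Both ratios were lower in all 4 tumor-bearing livers than in both sham livers. For Tgfbr3 the ratio was 33.9 and 34.3 in sham, 33.3 and 27.1 in intra-C, and 25.8 and 42.9 in intra-S, so sham lay within the range of intra-S. For Tgfbr1 it was 74.9 and 59.9 in sham, 42.4 and 48.8 in intra-C, and 71.3 and 54.3 in intra-S, lower than both sham livers in 3 of the 4 tumor-bearing livers. For Acvrl1 it was 6.63 and 3.37 in sham and 3.50 to 6.80 in the tumor-bearing livers, again overlapping. These ratios have no test, and other liver cells also express several of these genes.

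**Figure D4:**
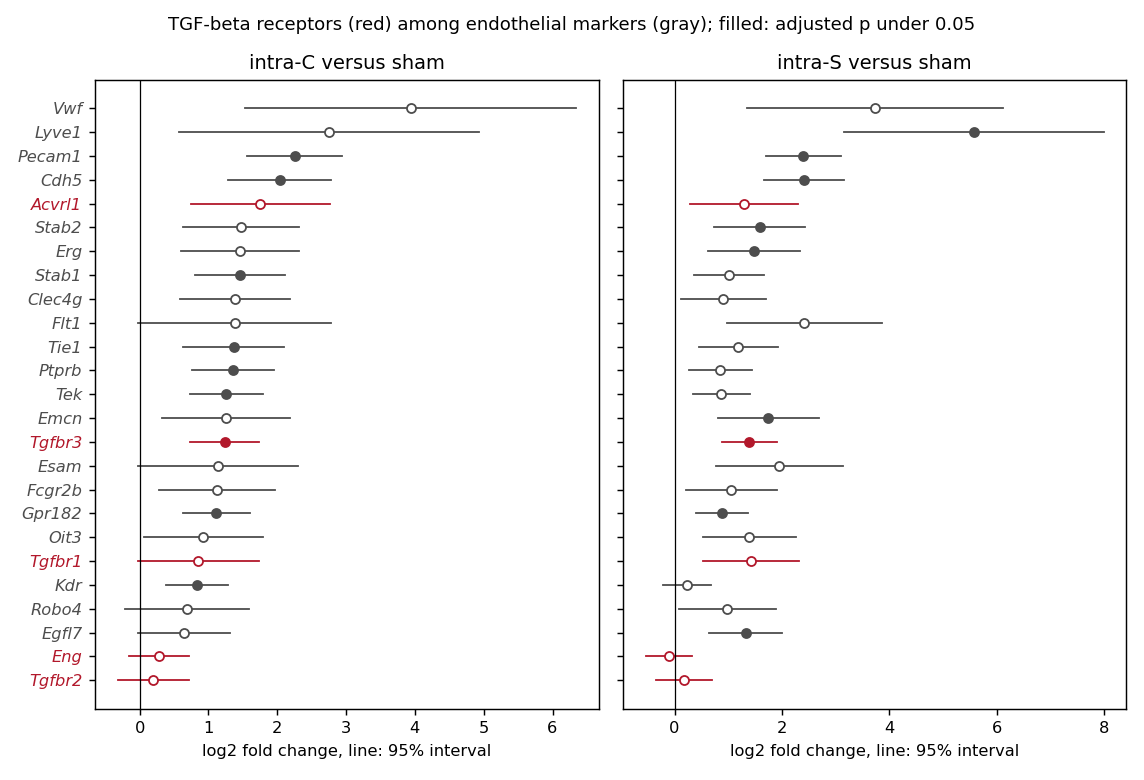
Log2 fold change against sham (edgeR, horizontal axes) of the 5 receptor and co-receptor genes in red and the 20 endothelial markers in gray, with lines for the 95% interval and filled symbols for an adjusted p under 0.05; genes are in the order of the intra-C values. Eng and Tgfbr2 are the lowest of the 25 genes in intra-C, at 0.28 and 0.20, and in intra-S they lie at -0.10 and 0.18.

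Per length the 9 genes fell in the same order in both sham livers, with no overlap between neighbours. The TPM values in the sham livers were 116 and 132 for Lrg1, 17.3 and 16.8 for Eng, 10.8 and 9.44 for Tgfbr2, and 5.38 and 4.56 for Tgfbr1. Tgfb1 followed at 3.85 and 3.62, Tgfbr3 at 2.47 and 2.64, Acvrl1 at 0.776 and 0.416, Tgfb3 at 0.197 and 0.225, and Tgfb2 at 0.0622 and 0.0798. In intra-C livers only Tgfb1 (6.26 and 9.54 TPM) and Tgfbr1 (7.10 and 8.69 TPM) overlapped as neighbours. In intra-S livers Eng (11.5 and 14.5 TPM) lay above Tgfb1 and Tgfbr2, which overlapped each other between 7.66 and 11.1 TPM, and Tgfbr1 (14.5 and 7.07 TPM) overlapped all 3. Tgfb3 (6.03 and 0.549 TPM) likewise overlapped Tgfbr3 (5.29 and 5.64 TPM) and Acvrl1 (1.16 and 1.23 TPM). Lrg1 exceeded Eng by 6.68 and 7.83 times in sham, 79.8 and 88.7 times in intra-C, and 70.7 and 86.4 times in intra-S. The share of Eng in the summed TPM of the 5 receptor genes was 47.2% and 49.6% in sham, 42.2% and 41.9% in intra-C, and 28.7% and 36.6% in intra-S. Eng thus held the largest share in each sham and intra-C liver and in intra-S liver 2, and Tgfbr1 held it in intra-S liver 1, at 36.1%.

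The wider pathway was read from 8 lists holding 119 genes, none of them among the 9, of which 105 passed the filter. In intra-C livers 11 rose and 0 fell, and in intra-S livers 19 rose and 0 fell, beside 4.92% and 6.78% of all tested genes that rose. Their median log2 fold change was 0.46 and 0.61. Between intra-S and intra-C 0 were called by edgeR, 22 had an unadjusted p under 0.05, and DESeq2 called 12. Without intra-S liver 1 the counts called were 42 in intra-C and 31 in intra-S, which kept all 11 of the intra-C genes and 18 of the 19 intra-S genes. The calls over all tested genes rose as well, from 7.3% to 26.5% in intra-C and from 10.7% to 16.5% in intra-S. Of those counts 5 fell in intra-C (Ccn1, Hjv, Pdk1, Smad3 and Snai2) and 3 in intra-S (Ccn1, Ltbp4 and Pdk1), named here after their values were seen. Pdk1 encodes pyruvate dehydrogenase kinase 1, a mitochondrial enzyme that is not a member of the PI3K route, and stood in its list by symbol. The kinase of that route is Pdpk1, which the list also holds. Leaving Pdk1 out, a choice made after seeing the data, gave 41 called with 4 falls in intra-C and 30 with 2 falls in intra-S, and with all livers kept the 11 and 19 calls were the same. Ccn1, a matricellular gene, moved from -0.19 to -2.39 in intra-S. Changes of these genes are given below as log2 fold changes against sham, for intra-C first where there are 2.

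**Figure D5:**
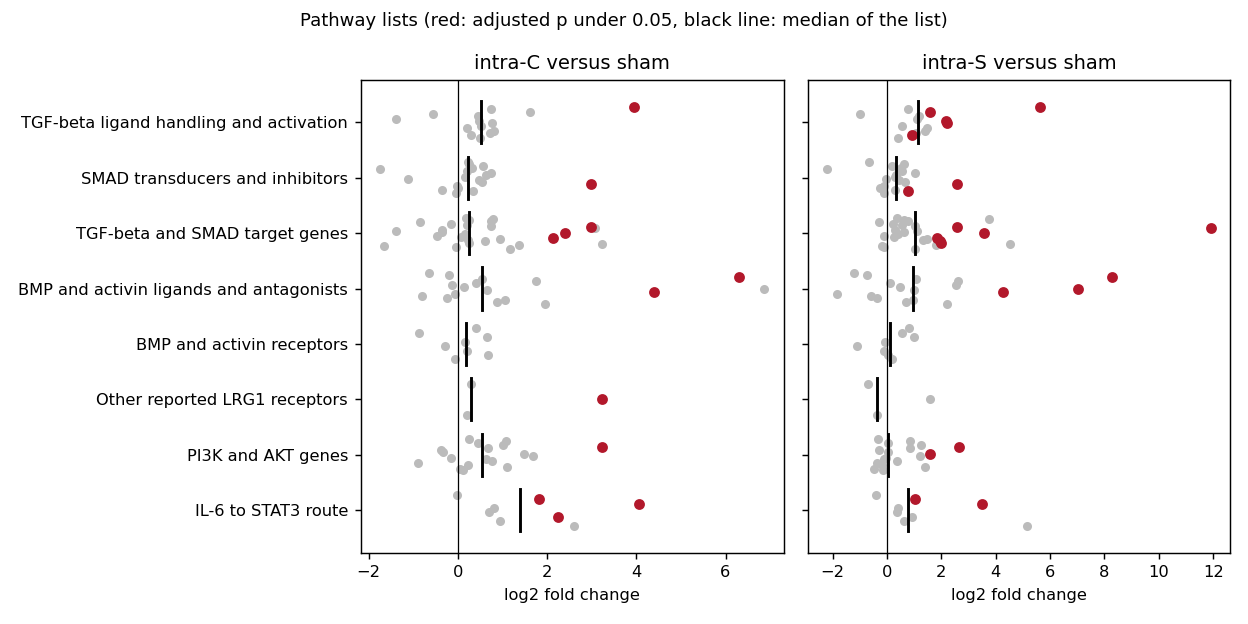
Log2 fold change against sham (edgeR, horizontal axes) of the tested genes of the 8 pathway lists, with 1 point a gene, red for an adjusted p under 0.05 and a black line at the median of each list. All red points, 11 genes in intra-C and 19 in intra-S, lie to the right of 0, and most genes of each list are gray.

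Of 14 tested genes that store, release or bind TGF-beta, 1 rose in intra-C and 5 in intra-S. These were 7.14%, near the 4.92% of all tested genes, and 35.7%, beside 6.78%. Thbs1 (thrombospondin 1, which activates latent TGF-beta) had 0.148 and 0.589 CPM in sham, 5.04 and 6.50 in intra-C, and 24.8 and 12.0 in intra-S. Its log2 fold change was 3.94 (adjusted p = 0.0245) and 5.62 (adjusted p = 0.00936). In intra-S Ltbp1, which tethers latent TGF-beta to matrix, rose by 2.17 (adjusted p = 0.037), Lrrc32 (GARP), which holds it on the cell surface, by 2.22 (adjusted p = 0.0471) and Nrros, its myeloid counterpart, by 1.59 (adjusted p = 0.0473). The proteoglycan Dcn rose by 0.93 (adjusted p = 0.0333) in intra-S. The call of Lrrc32 was lost without intra-S liver 1 (1.54, adjusted p = 0.0625), and Thbs1 was 5.01 in intra-S. Nrros was then called in intra-C as well (1.63, adjusted p = 0.00257). The counts of the list were then 5 up in intra-C, and 5 up and 1 down in intra-S.

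Of 18 SMAD transducers and inhibitors 1 rose in intra-C and 2 in intra-S, or 5.56% and 11.1%, near the 4.92% and 6.78% of all tested genes, and none of the SMAD genes themselves was among them. Skil (SnoN, a SMAD co-repressor that TGF-beta also induces) had 11.5 and 6.84 CPM in sham, 91.2 and 54.1 in intra-C, and 72.6 and 35.9 in intra-S, a log2 fold change of 2.99 (adjusted p = 0.0219) and 2.57 (adjusted p = 0.0243). Fkbp1a (FKBP12, which binds type I receptors) rose by 0.78 (adjusted p = 0.0478) in intra-S. Skil was 1.98 in intra-S without liver 1. With that liver left out 4 genes of the list rose in intra-C, namely Skil, Smurf2, Smad2 (0.48, adjusted p = 0.0468) and Smad5 (0.63, adjusted p = 0.0241), and Smad3 fell (-1.10, adjusted p = 0.0107). In intra-S 2 rose, Skil and Fkbp1a, and no SMAD gene was called. With all livers the median of the list was 0.24 and 0.32.

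Of 27 TGF-beta and SMAD target genes 3 rose in intra-C and 6 in intra-S, and most were not called. These were 11.1% and 22.2%, beside 4.92% and 6.78% of all tested genes. In both groups the risers were Fn1, Junb and Skil. Fn1 (fibronectin) had 910.4 and 936 CPM in sham, 4436 and 3682 in intra-C, and 3510 and 3154 in intra-S, a log2 fold change of 2.14 (adjusted p = 0.00817) and 1.85 (adjusted p = 0.00936). The transcription factor gene Junb rose by 2.41 (adjusted p = 0.0368) and 3.57 (adjusted p = 0.0133). Col1a1 and Col1a2 were among those that rose in intra-S. Junb was 2.99 in intra-S without liver 1. Leaving out intra-S liver 1 gave 9 up and 2 down in intra-C, and 9 up and 1 down in intra-S.

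The collagen genes Col1a1 and Col1a2 rose in intra-S by 1.98 (adjusted p = 0.0319) and 1.96 (adjusted p = 0.0191), and had values of 0.24 and 0.60 in intra-C that did not pass. They and Dcn are also stellate cell and fibroblast markers, of which 0 of 13 rose in intra-C by edgeR, with 3 at an unadjusted p under 0.05, and 5 of 13 in intra-S (2 and 7 without intra-S liver 1, where 1 also fell in intra-C). Of all tested genes 4.92% rose in intra-C and 6.78% in intra-S. The sum of the stellate cell and fibroblast list, led by Dcn, was 304 and 289 CPM in sham. It went to 369 and 359 CPM in intra-C and to 563 and 561 CPM in intra-S. The part of these cells in the collagen level was not tested.

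Of 17 BMP and activin ligands and antagonists 2 rose in intra-C and 3 in intra-S. These were 11.8% and 17.6%, beside 4.92% and 6.78% of all tested genes. Inhbb, the beta B subunit of activin, had 6 and 3 reads in sham, 243 and 358 in intra-C, and 1722 and 715 in intra-S. Its log2 fold change was 6.30 (adjusted p = 0.0118) and 8.27 (adjusted p = 0.00579). Bmper, a BMP-binding regulator, went from 0.714 and 1.15 CPM to 24.9 and 15.0 CPM in intra-C and 26.2 and 9.99 CPM in intra-S, a change of 4.41 (adjusted p = 0.0149) and 4.27 (adjusted p = 0.0132). Fst (follistatin, which binds activin) had 0 and 6 reads in sham, 630 and 35 in intra-C, and 406 and 302 in intra-S, and rose in intra-S (adjusted p = 0.0423). In intra-C it had an adjusted p of 0.0532, and 0.0174 without intra-S liver 1. Without that liver Inhbb was 7.33 and Bmper 3.41 in intra-S, and of 18 genes then tested 4 rose in intra-C and 5 in intra-S. Gdf2, the gene of the ALK1 ligand BMP9, which was picked for that role after its values were seen, had 18.6 to 26.7 CPM in the 6 livers and log2 fold changes of 0.40 and 0.12 that did not pass, the latter -0.06 without intra-S liver 1. Of 8 BMP and activin receptor genes none was called by edgeR in either comparison with sham, and 2 in intra-C and 3 in intra-S had an unadjusted p under 0.05, beside 27% and 30.2% of all tested genes. With intra-S liver 1 left out, 2 of 9 tested rose and 1 fell in intra-C, and 1 rose in intra-S, beside 26.5% and 16.5% of all tested genes called in either direction.

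Other receptors reported for LRG1 are the adhesion receptor gene Adgrl2 (latrophilin 2) and the growth factor receptor genes Egfr and Erbb3. Egfr had 44.2 and 61.0 CPM in sham, 609 and 384 in intra-C, and 108 and 209.7 in intra-S. It rose in intra-C by 3.24 (adjusted p = 0.0147) and had 1.59 (adjusted p = 0.0544) in intra-S, where it passed without liver 1 (2.00, adjusted p = 0.00503). Adgrl2 had log2 fold changes of 0.21 (95% interval -0.36 to 0.78) and -0.36 (95% interval -0.94 to 0.21). Erbb3 had 0.30 (95% interval -0.31 to 0.91) and -0.70 (95% interval -1.31 to -0.08, adjusted p = 0.128). The median of the 3 genes differed in sign between intra-C, at 0.30, and intra-S, at -0.36.

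Of 18 genes listed as PI3K and AKT genes 1 rose in intra-C and 2 in intra-S, or 5.56% and 11.1%, near the 4.92% and 6.78% of all tested genes. Pik3r5, a regulatory subunit of the leukocyte PI3K gamma, had 0.887 and 0.498 CPM in sham, 6.11 and 6.84 in intra-C, and 4.32 in both intra-S livers, a log2 fold change of 3.22 (adjusted p = 0.0105) and 2.64 (adjusted p = 0.0137). Pik3cg, its catalytic partner, rose by 1.59 (adjusted p = 0.0474) in intra-S. With intra-S liver 1 left out, 8 rose in intra-C, among them Pik3cg (1.49, adjusted p = 0.0198) and Pdpk1 (0.77, adjusted p = 0.00621), and 4 rose in intra-S. The 1 gene that fell in each group was Pdk1, so none of the other 17 fell. With all livers the medians of the list were 0.54 and 0.02, or 0.63 and 0.02 without Pdk1, and in intra-S without liver 1 the median was -0.04.

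On the IL-6 to STAT3 route, which induces acute-phase genes in hepatocytes, 3 of 8 genes rose in intra-C and 2 in intra-S. These were 37.5% and 25%, beside 4.92% and 6.78% of all tested genes. Stat3 had 67.0 and 62.4 CPM in sham, 229 and 226 in intra-C, and 134 and 130.2 in intra-S, a log2 fold change of 1.82 (adjusted p = 0.00785) and 1.03 (adjusted p = 0.0236). Its feedback inhibitor Socs3 rose by 4.05 (adjusted p = 0.0195) and 3.49 (adjusted p = 0.0213), and the receptor subunit gene Il6st (gp130) by 2.24 (adjusted p = 0.013) in intra-C. In intra-S Il6st had 0.94 (adjusted p = 0.0778), and 1.25 (adjusted p = 0.00358) without liver 1. Il6 had 2 and 0 reads in sham, 10 and 2 in intra-C, and 48 and 21 in intra-S. The ratio of summed Il6 reads to sham was 7.10 in intra-C (95% Clopper-Pearson counting interval 1.58 to 65.4) and 39.0 in intra-S (10.4 to 328), with an edgeR adjusted p of 0.288 and 0.0601 (0.268 and 0.13 without intra-S liver 1, where the fitted intra-S value moved from 5.14 to 4.26); these intervals cover counting error only. Il6ra had log2 fold changes of 0.95 (95% interval -0.21 to 2.11) and 0.61 (95% interval -0.55 to 1.77). With intra-S liver 1 left out, Il6ra was called in intra-C (0.95, adjusted p = 0.011) and turned to -0.37 (adjusted p = 0.325) in intra-S, Socs3 was 4.09 in intra-S, and 6 and 3 genes of the list rose.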

How the data were processed

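RNA of 6 livers was sequenced as poly(A) libraries. Per the labels the authors aligned reads with HISAT2 2.1.0 to mm10 and counted them per gene with featureCounts of Subread 2.0.6; the strand setting and annotation are not given in the sources used here. The deposited counts are raw, and the deposited TPM values were computed by the authors. Counts were analysed in edgeR 4.0.16 under R 4.3.3 (TMM, filterByExpr with a count minimum of 10, 1 quasi-likelihood fit over all 6 livers with 3 residual degrees of freedom, Benjamini-Hochberg over 16370 genes, adjusted p under 0.05). Levels between genes were compared on TPM. Marker sums, ratios to markers or albumin, and the most abundant marker of each list rest on CPM. SE is the log2 fold change over the root of F. Intervals cover the spread between livers and counting error. Scripts were tested on simulated data. Alternatives were DESeq2 1.42.0, limma 3.58.1 on TPM, other filters and scalings, 2 groups only, a replicate block and leaving out each liver. Genes and lists were chosen with earlier results of these data known. From each list, called genes were named, at most 4 a direction by size, plus Adgrl2, Egfr, Erbb3, Il6, Il6ra, Stat3 and Socs3; the patterns closest to each gene were ranked by root mean square difference. Listed genes absent from the count table were not analysed here, and some listed genes are counted but not reported here by name. Gene positions are from GENCODE (GRCm38).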

Additional observations from a re-analysis of the deposited data

How the results depend on the processing

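Over the 16 alternatives Lrg1 kept its direction in all 3 comparisons and its calls against sham in 14. The number of the 9 genes called in intra-C was 1 on log2(TPM + 1) and on log2(TPM + 0.1), and 5 with only the 2 groups compared, where 30.5% of all tested genes were called. In intra-S it was 6 by DESeq2, where 19.5% of genes tested were called, and 1 with only the 2 groups compared, where 2.48% were. Pathway genes called were 22 by DESeq2 and 41 with the 2 groups only in intra-C, 35 and 7 in intra-S, and 12 by DESeq2 between intra-S and intra-C. The cause of these shifts was not tested. DESeq2 called 4 of the 9 in intra-C, beside 16.3% of genes tested.

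Leaving out each liver in turn moved the number of the 9 called between 0 and 6 in intra-C, 0 and 5 in intra-S, and 0 and 3 between intra-S and intra-C, and the pathway count between 0 and 42, 0 and 52, and 0 and 28. The highest counts came without intra-S liver 2, where 26.3%, 32.7% and 16.5% of all tested genes were called (the pathway count of 42 in intra-C also without intra-S liver 1, at 26.5%). Here the lone liver of a group is assumed to vary like the others. Lrg1 ranged from 3.73 to 3.92 in intra-C, 3.06 to 3.59 in intra-S and -0.76 to -0.24 between them.

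Signs turned only for genes that were not called. Tgfb2 in intra-C was -0.26 on library size, -0.0855 on log2(TPM + 0.1), -0.0122 on log2(TPM + 1), -0.0774 with the replicate block, -0.59 to 0.46 over the fits that left out a liver (negative without intra-C liver 1 and without sham liver 1), and between intra-S and intra-C it ranged from -0.94 to 0.13. Tgfbr2 was -0.0629 in intra-C and -0.0822 in intra-S on library size, -0.13 and -0.12 in intra-S on log2(TPM + 0.1) and log2(TPM + 1), and with a liver left out -0.0503 (without intra-S liver 2) to 0.38 in intra-S and -0.25 to 0.18 between intra-S and intra-C, where it turned without intra-C liver 1 or intra-S liver 1. Without intra-S liver 1, Eng turned in intra-S (range -0.22 to 0.0116), and Tgfb3 (-0.65 to 3.26) and Tgfbr1 (-0.0956 to 1.04) between intra-S and intra-C.

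Library size without TMM moved the median of all genes by -0.26 in intra-C and -0.27 in intra-S, and turned the split of calls from 806 higher and 389 lower to 569 and 801 in intra-C, and from 1110 and 646 to 838 and 1115 in intra-S. On TPM the medians moved to between -0.10 and -0.26, with splits of 497 to 589 higher and 890 to 896 lower in intra-C and 685 to 804 higher and 1476 to 1553 lower in intra-S. The replicate block lost the intra-C call of Tgfb1 (1.25, adjusted p = 0.0693) and left all other calls of the 9 genes; same-numbered livers did not deviate together (r = -0.03, 0.08 and 0.04), so they share only a number. With 2 livers a group and under 20 reads of Tgfb2 in every liver, small changes of this gene were not detectable.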
